A study of Mus musculus with 41 samples.

Results

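Krt7, Krt8, Krt18, Krt19, Muc1, Ehf, Elf3, Spdef and Tspan8 were followed as a set of luminal genes of the mammary epithelium across mouse mammary tumors. They were taken by exact gene name from the array annotation, with the probe of highest mean signal standing for each gene. All 9 were present and passed the filter on dim probes, so the set is 9 of the 20910 genes tested. The name luminal keratin and luminal surface genes covers the 4 keratins and the surface proteins Muc1 and Tspan8. Ehf, Elf3 and Spdef are nuclear transcription factors of the ETS family, so for these 3 the name describes the cell type and not the protein.

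The tumors arose from mammary duct fragments of Trp53-null BALB/c donors, which had been transplanted into cleared fat pads of wild-type BALB/c females, so that all groups carried the same deletion in the transplant and wild-type host tissue around it. Recipients received a lifelong low-fat diet (LFD), a lifelong high-fat diet (HFD), HFD in puberty only (HFD-LFD) or HFD in adulthood only (LFD-HFD), and tumors were classed as early when they arose within the first year and late thereafter. There were 29 epithelial tumors (early and late, 4 and 4 on LFD, 4 and 4 on HFD, 3 and 4 on HFD-LFD, 3 and 3 on LFD-HFD). There were 12 spindle cell tumors, with 3 late ones on LFD, 3 late ones on HFD, 1 early and 2 late on HFD-LFD and 2 early and 1 late on LFD-HFD. No label gives an animal for each tumor, and 3 label numbers are shared by a pair of tumors (11L and 11R, 56R and M56LA, and replicates 2 and 3 of the early epithelial HFD-LFD tumors), so p-values measure the spread between tumors. Fragments came from several donors, and no intact mammary gland was measured here.

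Luminal cells line the mammary ducts and face the lumen. They build their intermediate filaments from the simple-epithelial keratins, in which a type II keratin (Krt7 or Krt8) pairs with a type I keratin (Krt18 or Krt19). Muc1 is a heavily glycosylated mucin of the apical membrane, and Tspan8 is a tetraspanin of the cell surface. Ehf, Elf3 and Spdef are epithelium-specific ETS factors that bind DNA at a GGAA core. Spindle cell carcinomas are mammary tumors of elongated cells with mesenchymal features, in which epithelial genes are commonly followed as a sign of how much of the epithelial program remains.

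The array reads each gene through an oligonucleotide of 60 bases, and the stretches below show what was measured for the 4 keratins and Ehf where the probe lies in coding sequence. The Krt7 (chr15:101253718-101253777, plus strand), Krt18 (chr15:101862341-101862400, plus strand) and Krt19 (chr11:100002392-100002451, minus strand) probes gave the gene's value. For Krt8 (chr15:101828827-101828886, minus strand) and Ehf (chr2:103114043-103114102, minus strand) the second, dimmer probe is shown, because it bears on the comparison of histologies. Coordinates are those of the array annotation on mm9. Capitals mark the TGA stop codon that closes the longest open frame of the Krt18 probe, and no other capitals are used.
Krt7: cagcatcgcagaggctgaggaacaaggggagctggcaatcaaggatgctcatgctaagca
Krt8: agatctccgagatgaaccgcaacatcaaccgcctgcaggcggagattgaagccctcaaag
Krt18: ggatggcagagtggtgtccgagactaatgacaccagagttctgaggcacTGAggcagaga
Krt19: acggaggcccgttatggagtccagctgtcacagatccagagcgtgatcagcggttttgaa
Ehf: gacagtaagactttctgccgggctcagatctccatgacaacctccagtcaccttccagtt

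Krt8, Krt18 and Krt7 lie on chromosome 15 and were the members that varied together most closely in epithelial tumors, so the 250 bases before their start sites are shown, 5′ to 3′ on the gene's strand. They are from RefSeq on GRCm38.p6, where 7 of the 9 members had an entry: Krt7 chr15:101412153-101412402 (plus strand), Krt8 chr15:102004343-102004592 (minus strand) and Krt18 chr15:102027966-102028215 (plus strand). Capitals mark the ETS core GGAA or its reverse complement TTCC, searched on both strands. The core was found 3 times in the Krt7 window, 3 times in that of Krt8 and 1 time in that of Krt18. It was also found in 93.4% of 32851 promoters of this length, so most promoters hold it. The longer AGGAAG, which contains the core, was found 1 time each for Krt7 and Krt8 and not for Krt18, and 29.5% of all promoters held it.
Krt7 promoter: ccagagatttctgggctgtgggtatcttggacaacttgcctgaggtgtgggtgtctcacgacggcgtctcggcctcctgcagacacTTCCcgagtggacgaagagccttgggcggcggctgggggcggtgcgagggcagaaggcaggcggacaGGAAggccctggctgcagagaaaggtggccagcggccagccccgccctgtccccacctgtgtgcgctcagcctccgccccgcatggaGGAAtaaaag
Krt8 promoter: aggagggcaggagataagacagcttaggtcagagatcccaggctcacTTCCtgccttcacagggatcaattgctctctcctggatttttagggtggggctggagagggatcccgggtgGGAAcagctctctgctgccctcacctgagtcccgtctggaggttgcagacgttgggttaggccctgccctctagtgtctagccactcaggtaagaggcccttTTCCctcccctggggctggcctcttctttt
Krt18 promoter: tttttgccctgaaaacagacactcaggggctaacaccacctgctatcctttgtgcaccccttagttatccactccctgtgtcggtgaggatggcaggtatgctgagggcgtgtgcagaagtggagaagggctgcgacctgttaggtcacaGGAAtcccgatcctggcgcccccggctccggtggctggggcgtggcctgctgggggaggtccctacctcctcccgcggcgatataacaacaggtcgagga

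All values below are log2 ratios of tumor over a common reference RNA pooled from 11 mouse cell lines, so they compare tumors for a gene and not genes with each other. The labels give the tumor as the Cy5 channel, whereas the study's methods state that the reference carried Cy5. The labels were followed. The arrays bear on this directly: Ddx3y and Eif2s3y, which lie on the Y chromosome and should be missing from tumors of female mice, were well above background in the Cy3 channel of 41 arrays and in the Cy5 channel of 1 array, and their ratio was below 0 in 41 of 41. Of the other Y-linked genes measured, Uty was below 0 in 36 and Kdm5d in 16 of 41, but they were well above background in the Cy3 channel of only 9 arrays and 1 array, so neither settles the direction. The Cy5 signal also varied more between arrays (median SD of a gene's log2 signal 0.77) than the Cy3 signal (0.51).

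Between 52.4% and 94.9% of spots were well above background in the tumor channel of epithelial arrays and between 59.1% and 72.7% in spindle cell arrays. All 12 spindle cell arrays were scanned in a session of their own, on another scanner and with another version of the extraction software, and the effects of histology and of session cannot be told apart. The epithelial arrays of 42L4B and 60L, both early and on HFD, shared a slide and a session apart from the other epithelial arrays. Their reference channels had 53.5% and 47.5% of spots well above background, less than any other array. The array of 60L also had the largest share of outlier spots. The deposited matrix columns of 40R4A, 57R and 65R, all epithelial and on HFD, each matched the scanner file of another of these 3 tumors best, which touches the comparison of onset. Trp53, the gene deleted in the donors, had its lowest and highest ratio at -2.25 and 3.74 (the latter in 60L) in epithelial tumors and at 0.08 and 1.95 in spindle cell tumors. Where its probe lies relative to the deletion is not given in the sources used here, so it checks no label. The members were well above background in the tumor channel of every tumor, except Muc1 in 1 epithelial and 1 spindle cell tumor and Tspan8 in 2 and 1, and none was saturated.

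In epithelial tumors Krt8 and Krt18, the filament pair that all simple epithelia share, were above the reference in every tumor measured. Krt18 ranged from 0.57 over a median of 2.78 to 3.80 (mean 2.58 ± 0.78, SD, n = 28), and Krt8 from 0.16 over 2.24 to 3.53 (mean 2.10 ± 0.70, n = 28). Both lack a value in tumor 60L, whose spots were marked as outliers. Krt7 spread more widely, from -1.64 over 2.01 to 3.43 (mean 1.74 ± 1.14, n = 29), with 27L4A and 1 early HFD-LFD tumor below the reference. Krt19 ran from -0.98 over 0.63 to 4.58 (mean 0.97 ± 1.37, n = 27, without 42L4B and 60L); the highest value belonged to 31R.

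Of the surface proteins, Muc1 lay between -0.51 and 2.24 with a median of 1.13 (mean 0.90 ± 0.82, n = 29). Tspan8 was far below the reference in most epithelial tumors, with a lowest value of -4.58 and a median of -3.00, but reached 1.599 in 19R and 1.15 in 110R (mean -2.67 ± 1.54, n = 29). Among the ETS factors, Ehf was above the reference in every epithelial tumor, from 1.58 over 3.23 to 4.55 (mean 3.24 ± 0.65, n = 29), and Elf3 lay between 0.52 and 2.48 around a median of 1.63 (mean 1.57 ± 0.56, n = 29). Spdef ranged from -3.23 over -1.32 to 2.28 (mean -1.08 ± 1.49, n = 29), below the reference in most tumors and above it by more than 1 log2 unit in 31R and in replicate 1 of both the early HFD-LFD and the late LFD-HFD tumors.

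The comparison of spindle cell with epithelial tumors asked how far the luminal genes were lost in the spindle cell carcinomas. Only Ehf was called. It was lower in spindle cell tumors by a log2 difference of -1.11 (SE 0.35, 95% interval -1.83 to -0.40, limma adjusted p = 0.0227 over all genes). The fit used 1 variance per gene for both histologies, whereas the SD of Ehf was 0.65 in epithelial and 1.71 in spindle cell tumors. With the wider spread in the smaller group, this SE and p-value may be too small. With 1 of 9 members called at an adjusted p under 0.05, against 20.2% of all genes in either direction and 12.2% in the lower direction, the members were called no more often than genes in general. At an unadjusted p under 0.05 there were 3 members, and 33.3% of all genes. The differences of all 9 were below 0, with a median of -0.44 beside -0.07 for all genes, but 3 of them changed sign with the processing. That of Krt8 turned to 0.04 with the mean over probes, that of Muc1 to 0.01 with median centring and 0.34 with late tumors only, and that of Tspan8 to 0.01 without M129L. In bulk tumors, fewer luminal cells and less RNA per luminal cell cannot be told apart.

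**Figure D1:**
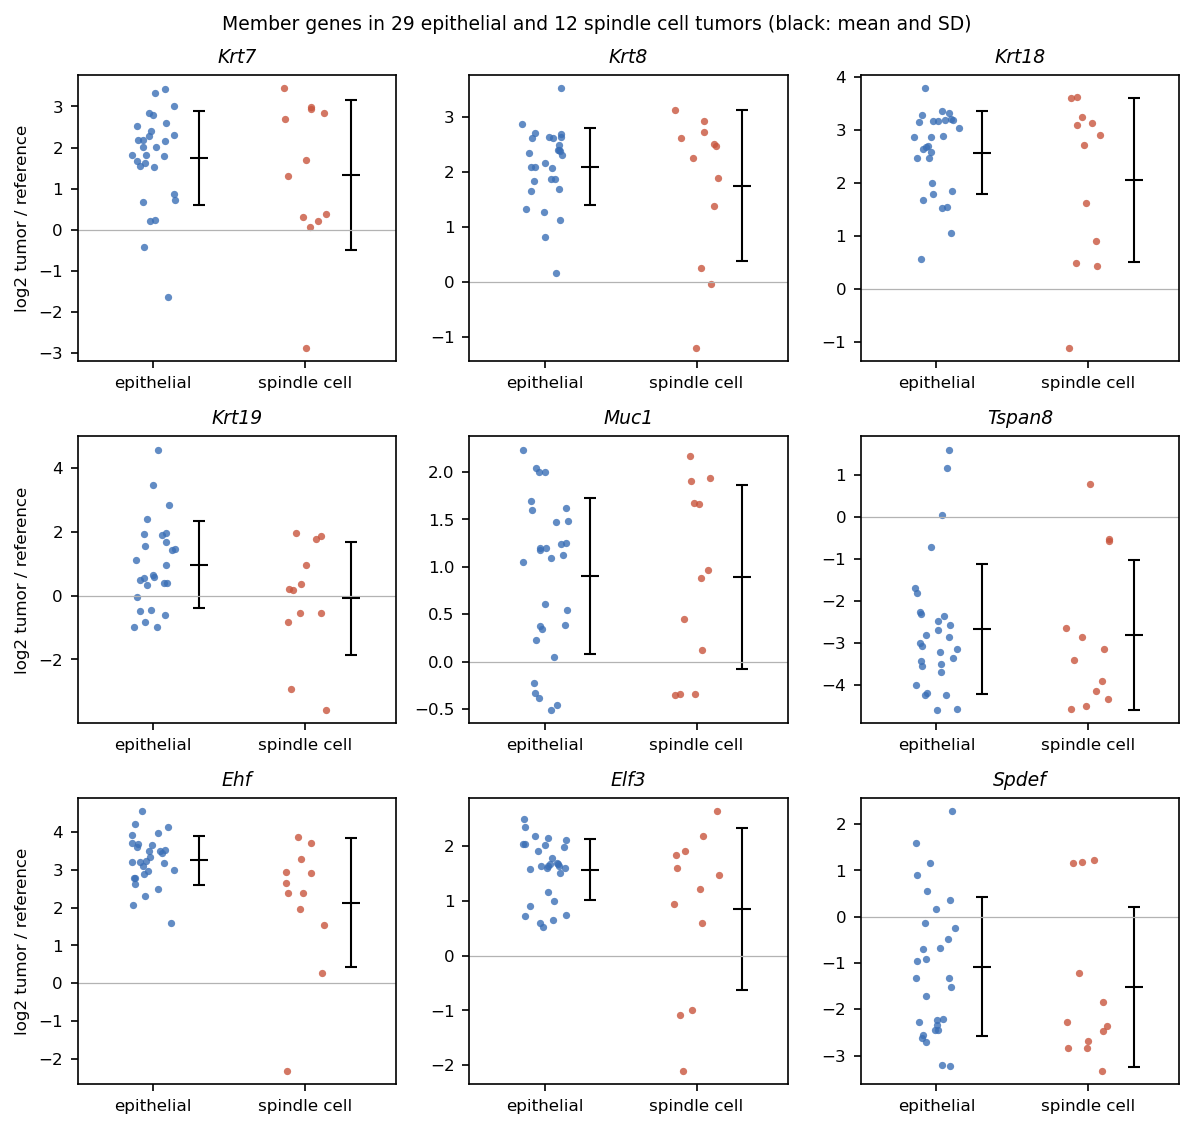
Each panel plots 1 gene, with a point for each of 29 epithelial (blue) and 12 spindle cell (red) tumors and, in black, the mean and SD; the vertical axis is the log2 ratio of tumor over reference. The ranges overlap for all 9 genes, and for Ehf the spindle cell points reach down to -2.33 while the epithelial ones stop at 1.58.

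Ehf, an ETS factor of luminal and other simple epithelia, fell from 3.24 ± 0.65 in epithelial tumors to 2.13 ± 1.71 (SD, n = 12) in spindle cell tumors, which ranged from -2.33 over 2.52 to 3.86. The ranges overlapped, and 3 spindle cell tumors (M63L at -2.33, M129L at 0.28 and M33R at 1.54) lay below every epithelial tumor. The second Ehf probe gave -1.37 for the same difference and followed the main probe with r = 0.94 over 41 tumors. The call rested on single tumors: without M63L the difference was -0.71 (adjusted p = 0.0634), without M129L -0.94 (0.0598), and with late tumors only -1.19 (0.119). With slide as a random block it was -1.11 (0.0692).

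Elf3, the second ETS factor, had a difference of -0.72 (SE 0.31, adjusted p = 0.0897). Its spindle cell values ran from -2.11 over 1.34 to 2.64 (mean 0.85 ± 1.48), and 3 tumors, M63L, M76R and M129L, were below the lowest epithelial value while M18L was above the highest. Krt19 differed by -1.06 (SE 0.50, adjusted p = 0.13), with spindle cell values from -3.59 over 0.20 to 1.97 (mean -0.09 ± 1.77). Here M129L at -3.59 and M63L at -2.94 stood below the epithelial range. Without M32L, M76R and M86R Krt19 was called (-1.46, adjusted p = 0.0494), and without M18L or M32L Elf3 was (-0.88 with 0.0346, and -0.84 with 0.0468).

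The remaining members did not pass the test. Krt18 differed by -0.52 (95% interval -1.24 to 0.20), Krt7 by -0.41 (-1.32 to 0.51), Krt8 by -0.35 (-0.99 to 0.29) and Spdef by -0.44 (-1.48 to 0.60). Tspan8 differed by -0.14 (-1.22 to 0.94) and Muc1 by -0.01 (-0.59 to 0.58). These intervals leave room for differences of about 1 log2 unit in most of the genes. For Krt8 and Krt18 the spindle cell median was no lower than the epithelial one (2.37 against 2.24 and 2.81 against 2.78), although the mean was. For Krt7 (1.51 against 2.01) and Krt19 (0.20 against 0.63) the median was lower too.

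**Figure D2:**
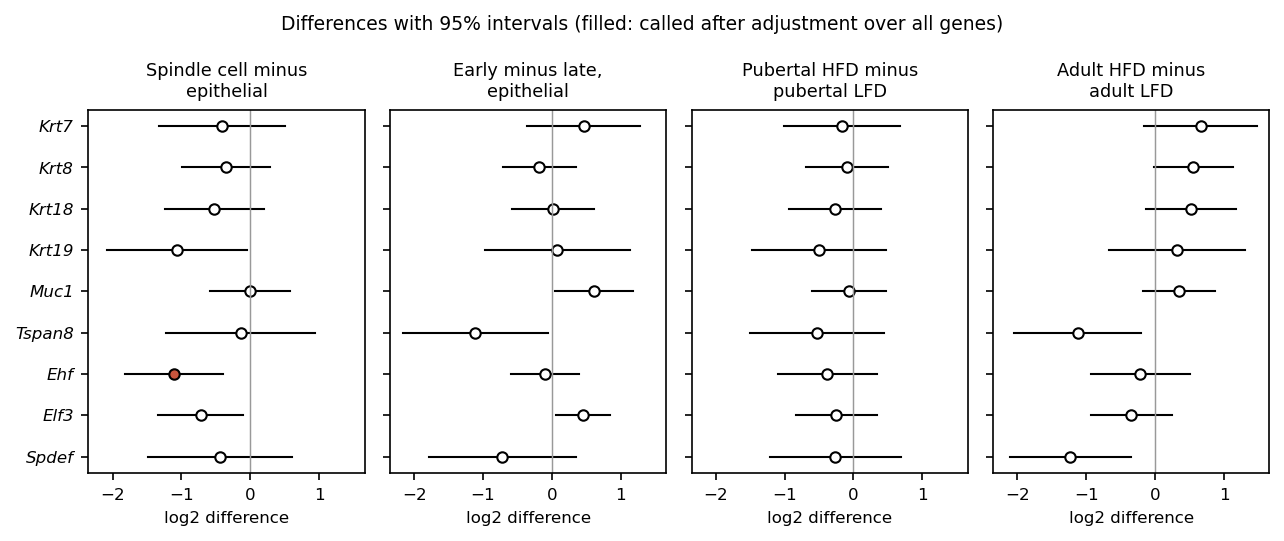
Points give the log2 difference of each gene in 4 comparisons and lines its 95% interval from limma; a filled point was called after adjustment over all genes. Ehf in the comparison of histologies is the only filled point, at -1.11.

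The reference channel moved with histology as well. Over all genes its median log2 signal was 0.33 lower on spindle cell arrays (difference -0.33) and that of the tumor channel differed by -0.38. For Ehf the reference channel differed by -0.48 and the tumor channel by -1.60, for Krt19 by -0.97 and -2.18, and for Krt7 by -0.83 and -1.24. The 2 Krt8 probes disagreed. The brighter one gave -0.35, with reference and tumor channels at -0.13 and -0.54, and the coding probe shown above gave 0.42, with channels at -0.89 and -0.56. Channel values kept the outlier spots that the ratios left out, so they need not subtract to the stated difference. The part of the scan session in the differences between histologies was not tested.

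The members spread more widely among spindle cell tumors. The SD over tumors was larger in spindle cell than in epithelial tumors for all 9 members, by 2.67 times for Elf3, 2.61 times for Ehf, 1.97 times for Krt8 and for Krt18, 1.6 times for Krt7 and between 1.15 and 1.29 times for the others. The median ratio over all genes was 0.951, and the ratio of Ehf exceeded that of 99.3% of genes and that of Elf3 99.4%. These ratios are given as a description, and the limma intervals and p-values between histologies do not allow for them. The wider spread was not particular to the members. Most of the other simple-epithelial genes read below had it too, such as Grhl2 (SD 0.407 in epithelial and 1.982 in spindle cell tumors) and Esrp1 (0.366 and 1.595). Only Ovol2 (0.408 and 0.328) and Krt20 (1.078 and 1.047) of that list went the other way.

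**Figure D3:**
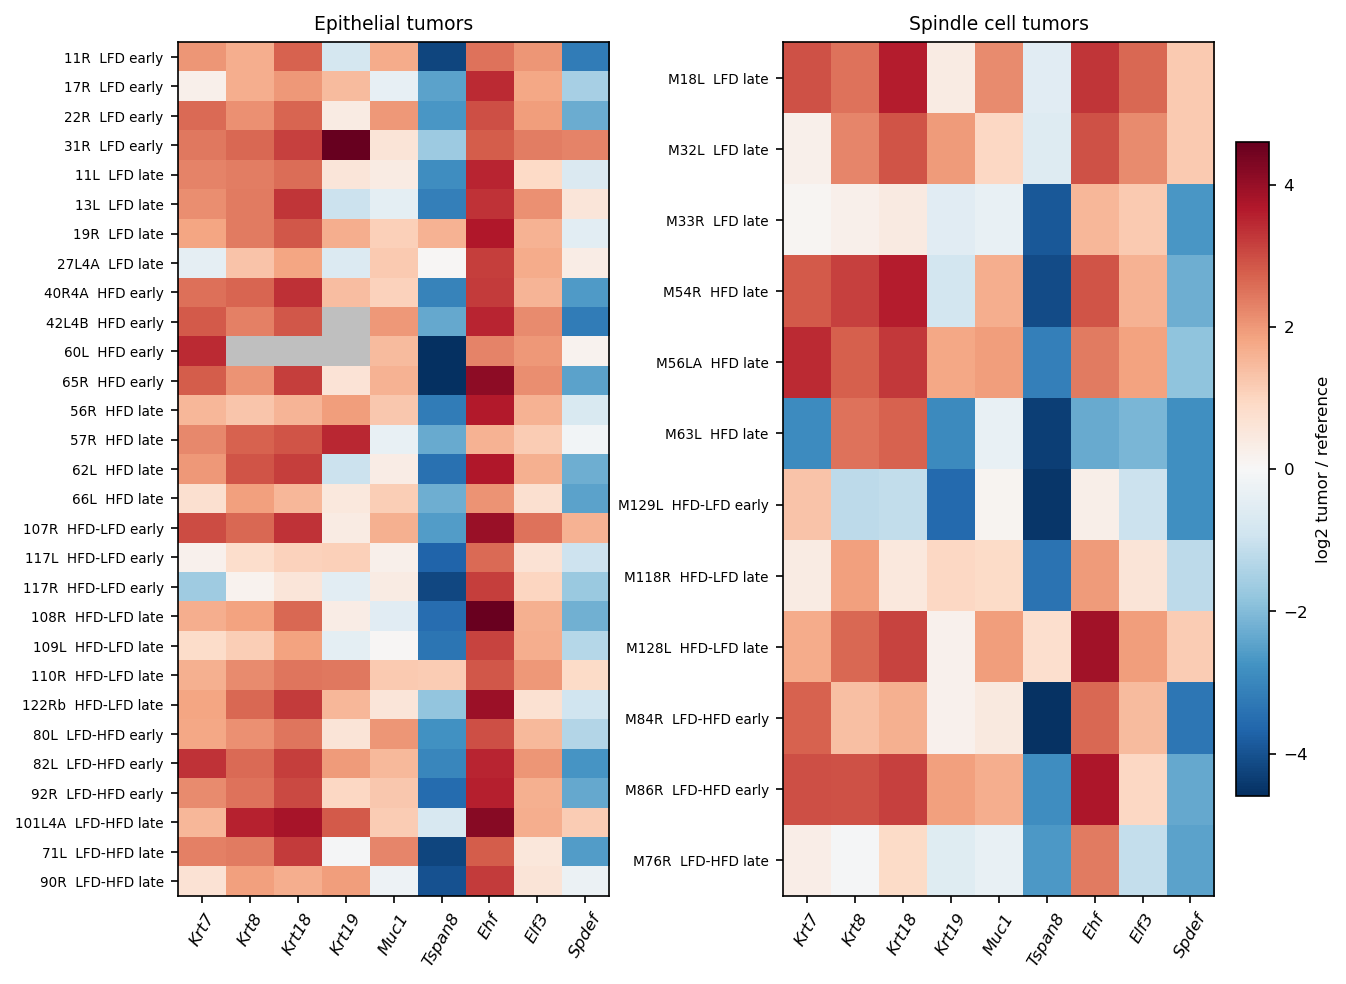
Rows are tumors, labelled with regimen and onset, and columns the 9 genes; colour gives the log2 ratio of tumor over reference from -4.6 (blue) to 4.6 (red), and grey marks spots set aside as outliers. Among spindle cell tumors M129L is blue for Krt8 (-1.21) and Krt18 (-1.12), M63L is blue for Krt7 (-2.89), Ehf (-2.33) and Elf3 (-2.11) but red for Krt8 (2.48), and M18L is red for both keratins and all 3 ETS factors.

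Spindle cell tumors differed from each other in which luminal genes were low. In 6 of 12 no member was below the lowest epithelial value: M18L and M32L on LFD, M54R and M56LA on HFD, M128L on HFD-LFD and M86R on LFD-HFD. M18L, for example, had Krt18 at 3.62, Krt7 at 2.93, Muc1 at 2.17, Ehf at 3.28 and Elf3 at 2.64. M128L had Krt18 at 3.11, Ehf at 3.86 and Tspan8 at 0.78, the highest Tspan8 value of the spindle cell tumors.

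The tumor M129L, on HFD-LFD and early, was low in 5 members: Krt8 at -1.21, Krt18 at -1.12, Krt19 at -3.59, Ehf at 0.28 and Elf3 at -0.99. Its Krt7 remained at 1.31, inside the epithelial range. Of all genes measured on that array, 7.87% were below their lowest epithelial value. M63L, on HFD and late, was low in 4 members: Krt7 at -2.89, Krt19 at -2.94, Ehf at -2.33 and Elf3 at -2.11, with 10.9% of all genes below. Its Krt8 at 2.48 and Krt18 at 2.72 were near the epithelial medians, so Krt7 was low and the Krt8 and Krt18 pair was not, the opposite of M129L.

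Less was low in the other 4 of these tumors. M33R (LFD, late) was below the epithelial range in Krt18 at 0.43 and Ehf at 1.54, M76R (LFD-HFD, late) in Krt8 at -0.04 and Elf3 at -1.08, M118R (HFD-LFD, late) in Krt18 at 0.49, and M84R (LFD-HFD, early) in Spdef at -3.34. The share of all genes below their lowest epithelial value in these 4 ran from 5.82% to 12.1%, and in the 6 tumors with no low member from 3.65% to 6.05%.

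Marker lists were summed in the same tumors. The mean ratio over the other 17 simple-epithelial genes was -2.62 in M63L, -1.86 in M129L, -0.58 in M76R and -0.47 in M118R, all below the epithelial range of -0.00 to 2.71, and between 0.65 and 1.66 in the other 8. The mean over 14 mesenchymal markers was -0.92 in M63L and -0.16 in M129L, within the epithelial range of -2.82 to -0.16, and above that range in M76R (0.59), M32L (0.32), M33R (-0.05) and M84R (-0.10). For 5 endothelial markers it was 1.03 in M76R and 0.99 in M32L, above the highest epithelial value of 0.92, and within the epithelial range in the other spindle cell tumors. For 4 adipocyte markers it was 3.42 in M76R and 1.59 in M32L, above the highest epithelial value of -0.55, and no higher than -3.77 in the other spindle cell tumors. The mean of 10 immune markers was 1.62 in M76R, 1.41 in M129L and 1.86 in M86R, within the epithelial range of -0.63 to 2.21. In M63L and M129L the mesenchymal, endothelial, adipocyte and immune means were thus all within the epithelial range. M32L, with no member below that range, was above it in the mesenchymal, endothelial and adipocyte means. The part of these lists in the luminal values was not tested.

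The members varied together in pairs. In epithelial tumors Krt8 and Krt18, which form 1 filament pair, had r = 0.91 (Spearman's rho 0.83, n = 28, and r = 0.85 without the 2 tumors farthest from the median of Krt8), and each ranked 1st among 20902 genes for the other. Krt7 followed Krt18 with r = 0.83 (rho 0.71, n = 28, 0.76 without 2 tumors) and Krt8 with r = 0.74 (rho 0.61, 0.58 without 2). Within slides these were 0.90, 0.81 and 0.71. Krt19, although also a type I keratin, had r = 0.39 with Krt8 and 0.20 with Krt18, and its closest member was Spdef at 0.48 (rho 0.35, n = 27, 0.28 without 2 tumors, and 0.71 within slides). Over 36 pairs the median r was 0.20, and 7 were below 0.

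**Figure D4:**
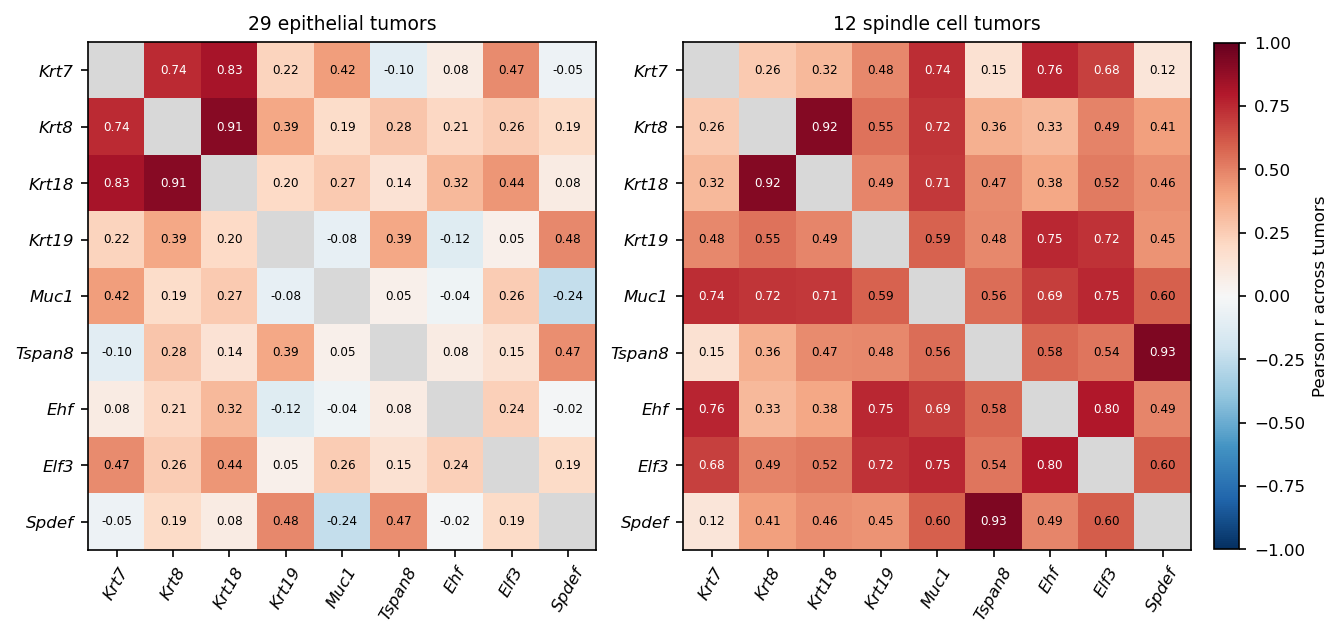
Each cell gives Pearson's r between 2 member genes across tumors, left for epithelial (27 to 29 tumors per pair) and right for 12 spindle cell tumors, on a colour scale from -1 to 1. On the left the pairs among Krt7, Krt8 and Krt18 are the 3 at 0.5 or more, and on the right 20 of 36 pairs are. Leaving out the 2 tumors farthest from the median of a pair's first gene, in the order of the opening list, gives 5 on the left and 13 on the right.

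In spindle cell tumors Krt8 and Krt18 again went together (r = 0.92, rho 0.88, n = 12, 0.86 without 2 tumors), while Krt7 had r = 0.26 with Krt8 (rho 0.61, 0.52 without 2 tumors) and 0.32 with Krt18 (rho 0.66, 0.58 without 2). Spdef and Tspan8 had r = 0.93 (rho 0.83, 0.91 without 2 tumors), with M18L, M32L and M128L high in both: Spdef was 1.19, 1.22 and 1.17 in these 3 and at most -1.21 in the other 9. In epithelial tumors the same pair had r = 0.47 (rho 0.43, n = 29). Ehf and Elf3 had r = 0.80 in spindle cell tumors, but 0.37 without the 2 tumors farthest from the median of Ehf, M63L and M129L, so that relation rested on them. All 36 pairs were above 0 there, with a median r of 0.54, and 20 were at 0.5 or more. Without the 2 tumors farthest from the median of the first gene of each pair the median was 0.39, 13 pairs were at 0.5 or more and 2 were below 0, so many of these relations rested on a few tumors. Krt19 and Ehf, for example, went from 0.75 to 0.26. Correlations are given as a description, across tumors that share a reference and array design, and whether they differ between histologies was not tested.

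Genes outside the set that followed it most closely over the 29 epithelial tumors were ranked by r with the mean of the members' standardized values. The 10 highest of 20894 were Tmc4 (0.77), Ceacam2 (0.76), Elmo3 (0.76), Mlph (0.75), Kcnk1 (0.73), Cngb1 (0.72), Clcn3 (0.72), Arrdc1 (0.72), Dennd2d (0.71) and E230025N22Rik (0.71), each over 27 to 29 tumors, where 95% of genes were under 0.40. Of these, Ceacam2, an adhesion molecule of the carcinoembryonic antigen family, was lower in spindle cell tumors (-1.07, adjusted p = 0.0108), as was Dennd2d (-1.02, 0.0283). The others were not called. Of all genes 20.2% were called between histologies and 12.2% were called lower, so these calls were near the share of all genes.

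Other epithelial genes were read in the same comparison of histologies, where 12.2% of all genes were called lower. Of 17 further simple-epithelial genes 3 were called lower and none higher: Krt23, a type I keratin (-1.55, adjusted p = 0.0266), Grhl2, a transcription factor of epithelial junction genes (-1.29, 0.0114), and Ocln, the tight junction protein occludin (-1.16, 0.05). Epcam (-0.77, 0.245) and Cdh1, which encodes E-cadherin (-0.73, 0.142), did not pass. Of 19 further luminal genes tested 3 were called lower: Elf5, an ETS factor of luminal progenitors (-1.63, 0.00937), the prolactin receptor Prlr (-1.48, 0.0338) and Agr2, a secretory pathway protein (-1.32, 0.000176). Both counts were near the share of all genes. The medians of the 2 lists were -0.74 and -0.44, beside -0.07 for all genes. Agr2 was well above background in the tumor channel of 28 epithelial and 10 spindle cell tumors.

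Basal, mesenchymal and other markers were read in the same fit, in which 20.2% of all genes were called, namely 12.2% lower and 7.92% higher in the spindle cell group. None of 10 basal markers was called. Of 14 mesenchymal markers 6 were called higher in spindle cell tumors, with the collagen genes Col1a2 (1.23, adjusted p = 0.00804), Col1a1 (1.22, 0.0128) and Col3a1 (1.20, 0.0166) foremost, and the list's median was 0.83. Of 10 immune markers 1 was called lower (the T cell gene Cd8a, -1.39, 0.0344), of 5 endothelial markers 2 were called higher (Pecam1, 0.87, 0.00183, and Kdr, 0.56, 0.0027), of 4 adipocyte markers none, and of 5 muscle markers 1 was called lower (Mylpf, -0.58, 0.00954). Cd8a was well above background in the tumor channel of 24 epithelial and 6 spindle cell tumors, and Mylpf in that of 18 and 1. Their values thus lay near the background in many tumors.

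Diet regimen was compared over the 29 epithelial tumors. All LFD and all HFD-LFD tumors among them were on slides of their own, and only HFD and LFD-HFD tumors shared a slide. The effects of regimen and of slide therefore cannot be told apart, except in part between HFD and LFD-HFD. With an F-test over 4 regimens no member was called at an adjusted p under 0.10, where 0.473% of all genes were, and no member passed an unadjusted p under 0.05, where 13% of genes did. The lowest adjusted p among members was 0.483, for Krt8. In order of the means, Krt8 was 1.63 ± 0.95 on HFD-LFD (n = 7), 2.07 ± 0.46 on LFD (n = 8), 2.26 ± 0.57 on HFD (n = 7) and 2.50 ± 0.57 on LFD-HFD (n = 6), with neighbours closer than their SD. Krt7 was likewise lowest on HFD-LFD (1.08 ± 1.48) and highest on HFD (2.25 ± 0.84), and Muc1 lowest on HFD-LFD (0.50 ± 0.72) and highest on LFD-HFD (1.33 ± 0.87).

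The lowest Krt7, Krt8 and Krt18 values on HFD-LFD were those of early replicates 2 and 3, a pair of tumors with the same label number. Their Krt8 was 0.81 and 0.16, their Krt18 1.05 and 0.57 and their Krt7 0.21 and -1.64. Early replicate 1 of that regimen had Krt8 at 2.64, Krt18 at 3.32 and Krt7 at 3.01, and the 4 late tumors had Krt8 between 1.12 and 2.63. Both low tumors kept Ehf at 2.62 and 3.17.

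**Figure D5:**
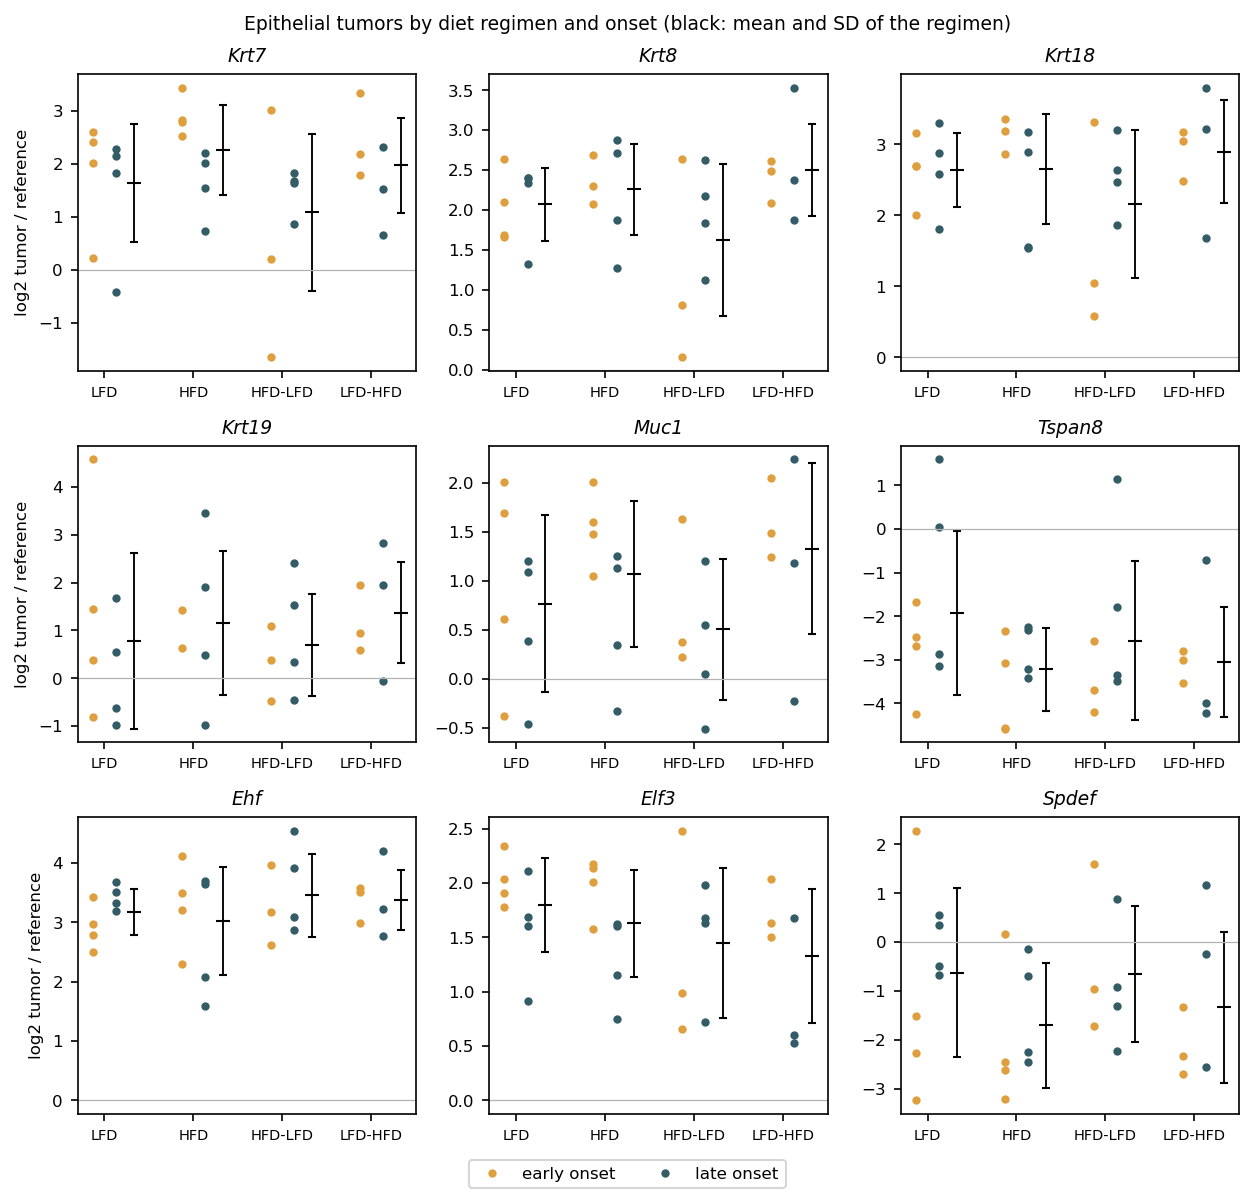
Each panel plots 1 gene in the 29 epithelial tumors by regimen, with early (orange) and late (teal) tumors apart and the regimen's mean and SD in black; the vertical axis is the log2 ratio of tumor over reference and differs between panels. Regimens overlap in every panel, and Tspan8 is above 0 in 3 late tumors, 2 on LFD and 1 on HFD-LFD.

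None of the 9 members was called in any of the 6 contrasts between regimens. The share of all genes called was 1.25% for HFD-LFD against LFD, 0.263% for LFD-HFD against HFD, 0.0287% for HFD-LFD against HFD and 0% for HFD against LFD, LFD-HFD against LFD and LFD-HFD against HFD-LFD. At an unadjusted p under 0.05 there was 1 member in HFD-LFD against HFD, Krt7 (-1.17, SE 0.55, limma adjusted p = 0.35), and 1 in LFD-HFD against HFD-LFD, Krt8 (0.87, SE 0.36, limma adjusted p = 0.965). The other 4 contrasts had none.

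Pubertal HFD was tested over all 41 tumors, comparing the regimens that began with HFD with those that began with LFD. No member was called (0.00956% of genes were), nor passed an unadjusted p under 0.05, where 6.95% of genes did. Differences ran from -0.53 for Tspan8 (95% interval -1.50 to 0.44) to -0.07 for Muc1 (-0.60 to 0.47), with a median of -0.26 beside -0.02 for all genes. For Ehf the difference was -0.38, from 3.11 ± 0.58 (n = 20) to 2.73 ± 1.53 (n = 21), where the lowest pubertal HFD values were those of the spindle cell tumors M63L and M129L.

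Adult HFD was tested in the same way, by the diet on which a regimen ended. No slide held epithelial tumors of both adult diets, so among epithelial tumors adult diet and slide cannot be told apart. No member was called and neither was any gene (0%), while 2 members and 4.56% of genes passed an unadjusted p under 0.05. Those 2 were Spdef and Tspan8. Spdef, which drives secretory differentiation in several epithelia, was -0.61 ± 1.61 (n = 21, range -3.23 to 2.28, median -0.91) under adult LFD and -1.84 ± 1.24 (n = 20, range -3.34 to 1.17, median -2.35) under adult HFD. The difference was -1.23 (SE 0.44, unadjusted p = 0.00716, limma adjusted p = 0.933). Tspan8 was -2.17 ± 1.87 and -3.29 ± 0.99 in the same groups, a difference of -1.12 (SE 0.46, unadjusted p = 0.018, adjusted p = 0.933). Of the 7 tumors with Tspan8 above -1, 6 were on adult LFD, a count that describes the same values and adds no test.

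The keratins had values on the other side under adult HFD. Krt8 was 2.29 ± 0.80 (n = 19) against 1.73 ± 1.01 (n = 21), a difference of 0.56 with a 95% interval of -0.01 to 1.13, Krt7 differed by 0.66 (-0.15 to 1.48) and Krt18 by 0.52 (-0.14 to 1.18). The value for Krt18 turned to -0.46 with the deposited matrix, in which Krt18 lacked a value in some tumors. With epithelial tumors alone the differences were -0.91 for Spdef and -0.92 for Tspan8 and were not called either (adjusted p = 0.947 each).

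Onset was compared between 14 early and 15 late epithelial tumors. No member was called, where 0.143% of all genes were, and 3 members and 13.2% of genes passed an unadjusted p under 0.05. With the early tumors 42L4B and 60L left out, no member passed an unadjusted p under 0.05. Elf3 was 1.80 ± 0.50 (range 0.65 to 2.48, median 1.96) in early and 1.35 ± 0.52 (range 0.52 to 2.11, median 1.61) in late tumors, a difference of 0.45 (SE 0.19, adjusted p = 0.31). Muc1 was 1.22 ± 0.75 and 0.61 ± 0.80, a difference of 0.61 (SE 0.28, adjusted p = 0.344). Tspan8 was -3.24 ± 0.90 and -2.13 ± 1.84, a difference of -1.11 (SE 0.52, limma adjusted p = 0.352). The 4 tumors with Tspan8 above -1 (19R, 110R, 27L4A and replicate 1 of LFD-HFD) were all late, which describes the same values.

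Most slides held tumors of 1 onset. With slide as a block the differences were 0.61 for Elf3 (adjusted p = 0.607), 0.76 for Muc1 (0.686) and -0.51 for Tspan8 (0.914). Within the 3 slides that held both onsets, Elf3 differed by -0.045, 1.099 and 0.905, Muc1 by 0.84, 0.42 and 0.93 and Tspan8 by 0.15, -0.02 and -1.54. On the slide giving -0.045 for Elf3 the early tumors were on LFD-HFD and the late ones on HFD. Onset and regimen cannot be told apart there. The slide giving 1.099 held 1 early tumor. The slide giving 0.905 held 40R4A, 57R and 65R, whose matrix columns did not match their own scanner files best. With 40R4A, 57R and 65R labelled as in the deposited matrix, Elf3 differed by 0.32, Muc1 by 0.35 and Tspan8 by -0.80. No keratin passed the test for onset. Krt18 differed by 0.01 (95% interval -0.58 to 0.61), Krt8 by -0.19 (-0.72 to 0.35), Krt19 by 0.08 (-0.97 to 1.13) and Krt7 by 0.46 (-0.36 to 1.28). The Krt7 difference was of the size of that of Elf3, with a wider interval, and within the 3 slides it was 0.21, 1.83 and 1.19.

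Within the 12 spindle cell tumors neither onset nor regimen gave a called member, and no gene was called (0% in both). No member passed an unadjusted p under 0.05 in either, against 2.03% of genes for onset and 3.74% for regimen. Early tumors numbered 3, with Spdef at -2.35, -2.83 and -3.34 and Krt7 at 2.98, 1.31 and 2.70. The 9 late ones ranged from -2.83 over -1.84 to 1.22 for Spdef and from -2.89 over 0.38 to 3.45 for Krt7, and the ranges overlapped. By regimen, Krt18 was 3.62, 2.90 and 0.43 on LFD, 3.61, 3.24 and 2.72 on HFD, -1.12, 0.49 and 3.11 on HFD-LFD and 1.63, 3.14 and 0.90 on LFD-HFD.

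Whether diet or onset acted differently in the 2 histologies was tested as an interaction over all 41 tumors. No member was called for pubertal HFD by histology, where 0.445% of genes were, or for onset by histology, where 0.00478% were. None passed an unadjusted p under 0.05, against 12.2% and 3.01% of genes. The interaction of largest size among the members was that of pubertal HFD for Ehf, -1.20 (SE 0.69, adjusted p = 0.484), and the intervals were wide, for Ehf from -2.59 to 0.19.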

How the data were processed

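RNA from 41 tumors (Cy5) and a common reference (Cy3) was hybridised to 2-colour Agilent arrays. Signals were deposited as intensity values, which the authors' Agilent Feature Extraction had background-subtracted and dye-normalized within each array; the labels name version 8.5.1.1, the file headers 11.0.1.1 for epithelial and 10.5.1.1 for spindle cell arrays. The deposited matrix of log2 ratios, made by the authors, served as an alternative.

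The log2 of processed Cy5 over Cy3 signal was taken per spot, and control and outlier spots were left out, so 1.19% of gene values were missing; no value was imputed. Probes with a signal of at least 10 in both channels on 80% of arrays were kept (27304 of 39429), and the probe of highest mean signal stood for a gene (20910 genes). The number of arrays limits the precision. Groups were compared with limma 3.58.1 (lmFit, eBayes; R 4.3.3), used in place of the study's SAM, with Benjamini-Hochberg adjustment over all genes, at 0.05 for histology and 0.10 otherwise. Intervals are at 95%. The fit was tested on simulated data, drawn for all tumors with the SD of epithelial ones. They held no slide effect, so the test covers neither unequal spread between histologies nor slides.

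The members and lists were chosen with earlier results of these data known. Named are the members, up to 3 genes per list in each direction with the largest called difference between histologies (Epcam and Cdh1 were chosen after their values were seen), and the 10 genes most like the members. Alternatives were normexp (offset 50) with loess, median centring, the matrix, other filters and thresholds, the mean over probes, outlier spots kept, slide blocks, covariates, subsets of tumors, exchanged labels and leaving out tumors. Tumors left out together included the set 42L4B, 60L and M86R.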

Additional observations from a re-analysis of the deposited data

Results flagged for a closer look

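Ehf in late spindle cell tumors had 1 value far from the rest. Tumor M63L, on HFD, was at -2.325 (log2 ratio of tumor over reference), and the nearest of the other 8 late spindle cell tumors was M33R at 1.54. The gap was 0.624 of the group's whole range, above Dixon's critical value of 0.493 for 9 samples. This was 1 of 45 groups examined, or 2.22%, where chance marks about 1 in 20. In the same tumor Krt7, Krt19 and Elf3 were also below every epithelial value, and the mean of the other simple-epithelial genes was -2.62. The cause was not tested.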

How the results depend on the processing

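Of the 9 members, 1 was called between histologies. The count was 2 with normexp and loess (Elf3 added, adjusted p = 0.0488), 2 at a threshold of 0.10 (Elf3) and 2 without M32L, M76R and M86R (Krt19 added). It was 0 with late tumors only and 0 when slide entered as a random block. Leaving out 1 spindle cell tumor at a time gave 0 to 2 called members, with 0 without M129L or M63L and 2 without M18L or M32L. The Ehf difference stayed below 0 in every alternative, from -1.41 to -0.71, with adjusted p from 0.00867 to 0.119. Over all genes the count of 4218 between histologies ranged from 2348 with late tumors only to 7892 without the filter on dim probes, where more genes were tested. The count of 99 for epithelial regimens ranged from 0 with slide as a random block to 200 with the deposited matrix, that of 30 for onset in epithelial tumors was 0 with the same block and highest with regimen as a covariate, and that of 93 for pubertal HFD by histology from 16 to 2364, the last with normexp and loess. That of 2 for pubertal HFD ranged from 0 to 22. No member was called in these comparisons under any alternative run. The cause of these shifts was not tested. Slide as a fixed block could not be run for the regimens, because LFD and HFD-LFD epithelial tumors were on slides of their own. No paired analysis was possible because the labels give no replicate numbers, and the groups of a comparison shared at most 1 label number (11L with 11R for onset, 56R with M56LA for histology).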
